A study of Mus musculus with 8 samples.

Results

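Txnip and 9 genes of the enzymatic antioxidant defence were followed through the lineages of mouse bone marrow progenitors and across 4 ages. The genes were taken as a named list, Txnip, Txn1, Sod1, Sod2, Cat, Gpx1, Gpx4, Prdx1, Prdx2 and Prdx6, by a rule that sets no threshold on their values. The list was chosen with earlier results of these data known. All 10 were found among the 32285 genes of the count matrices. Over all cells they held from 30789 UMIs (unique molecular identifiers, the counted molecules) for Cat to 1081473 for Gpx1, and Txnip held 97804. In GENCODE on GRCm38, Txnip (ENSMUSG00000038393) lies at chr3:96557957-96561883 and Gpx1 (ENSMUSG00000063856) at chr9:108338903-108340343, both on the plus strand, and the counts are of whole genes. The material was unmanipulated bone marrow of wild-type mice, sorted for cells that lack lineage markers and carry c-Kit, and profiled by droplet 3′ single-cell RNA sequencing with 1 library per mouse. Each of the 4 ages had 1 male and 1 female mouse: young at 14 weeks, middle-aged at 50 weeks, old at 78 weeks (male) and 79 weeks (female), and very old at 95 weeks. No agent, transgene or transplantation was involved in any group. The libraries of both very old mice carry another library series in their names than the other 6, so very old age and library series cannot be told apart.

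Reactive oxygen species are removed in steps. Superoxide dismutases turn superoxide into hydrogen peroxide, which catalase, glutathione peroxidases and peroxiredoxins then reduce. Peroxiredoxins are recharged by thioredoxin, and Txnip, an alpha-arrestin, binds thioredoxin and holds it inactive, while it also restrains glucose uptake. Blood stem cells keep low levels of reactive oxygen species in their quiescent state, and loss of Txnip is known to disturb that state. The transcription of Txnip follows glucose through carbohydrate response elements read by MondoA and its partner Mlx, whereas Prdx1, Txn1 and other genes of the defence answer to NRF2 through the antioxidant response element.

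The sequence upstream of Txnip is shown because these elements can be read in it directly, and that of Prdx1 as a contrast among the peroxide-reducing enzymes. Both come from RefSeq on GRCm38.p6, are written 5′ to 3′ on the plus strand and end at the base before the gene's start. The Txnip stretch is chr3:96557707-96557956, where capitals mark a forkhead core (GTAAACA) and 2 copies of CACGAG that lie 5 bases apart. The Prdx1 stretch is chr4:116685349-116685543, where capitals mark the antioxidant response element core, TGACNNNGC, read on the minus strand.

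Txnip upstream: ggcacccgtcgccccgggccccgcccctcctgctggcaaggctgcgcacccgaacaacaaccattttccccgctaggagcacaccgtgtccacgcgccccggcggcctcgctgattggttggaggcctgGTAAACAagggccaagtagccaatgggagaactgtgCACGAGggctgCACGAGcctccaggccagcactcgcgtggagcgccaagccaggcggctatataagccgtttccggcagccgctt

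Prdx1 upstream: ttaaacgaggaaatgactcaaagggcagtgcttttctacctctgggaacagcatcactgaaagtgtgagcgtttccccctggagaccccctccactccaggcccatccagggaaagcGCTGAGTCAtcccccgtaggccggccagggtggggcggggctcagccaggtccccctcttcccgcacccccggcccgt

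Windows from 250 bases before to 50 bases after the start were searched on both strands in 32851 RefSeq promoters, and 9 of the 10 genes had a window. A single CACGAG stood in 6.47% of all windows and, among the 10 genes, in that of Txnip. The pair of CACGAG copies 5 bases apart stood in 1 of the 32851 windows, 0.00304%, which was that of Txnip. The letters and spacing of the pair were taken from the Txnip sequence itself, so this match was fixed by the choice and says nothing of other forms of the element. The forkhead core stood in 3.65% of all windows, Txnip among them. The antioxidant response element core stood in 12.4% of all windows and in 2 of the 9, those of Prdx1 and Sod1. These are matches of letters in a short window and no binding was measured.

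The 8 libraries held 59465 cell barcodes, of which 59136 passed a minimum of 200 genes, with 83062003 to 150135029 UMIs per library and a median of 8505 to 14951 UMIs per cell. Pairs of libraries shared 6 to 27 barcodes, at most 0.382% of a library. Cells were clustered without the 10 genes, and clusters were named from marker lists, which gave 7 classes with enough cells in every mouse to compare: 4969 HSC-like, 10188 MPP-like (multipotent progenitor), 17367 erythroid-like, 7586 megakaryocyte progenitor-like, 7498 monocyte progenitor-like, 4985 granulocyte progenitor-like and 1875 basophil and mast progenitor-like cells. A further 4372 cells stayed unnamed. Levels are given as UMIs per cell after every cell was thinned to 2000 UMIs, averaged per mouse and then over the 8 mice. Cells with fewer UMIs were left out, 0.48% to 15.5% of a tested class over all mice and up to 26.1% of a class within 1 mouse. Differences between classes are descriptions, without a test.

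Txnip had the widest range of the 10 genes. Its level was 1.21 ± 0.44 UMIs per cell in HSC-like cells (SD, n = 8 mice) and 0.0578 ± 0.0169 in granulocyte progenitor-like cells, 20.9-fold apart, with HSC-like cells higher in 8 of 8 mice. Monocyte progenitor-like cells, at 0.0655 ± 0.0113, lay within the spread of granulocyte progenitor-like cells. Between these ends came basophil and mast progenitor-like cells at 0.500 ± 0.142, megakaryocyte progenitor-like cells at 0.396 ± 0.108, erythroid-like cells at 0.348 ± 0.126 and MPP-like cells at 0.312 ± 0.142. Neighbours among those 4 classes differed by no more than their spread over mice. The step from HSC-like to the next class and the step from MPP-like to monocyte progenitor-like cells were larger than the spread and were seen in 8 of 8 mice.

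**Figure D1:**
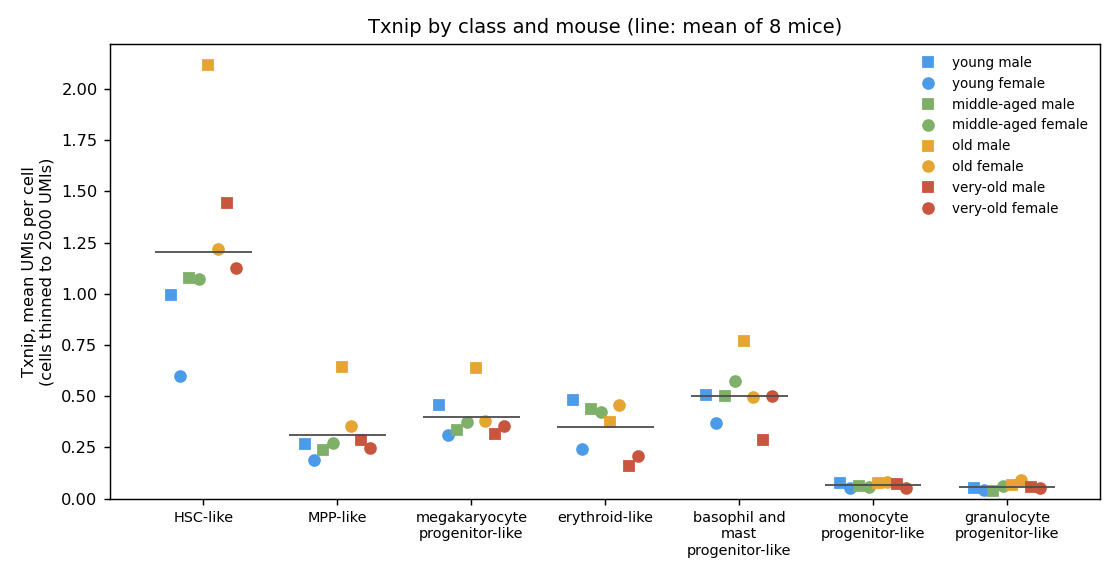
Txnip by class and mouse. The axis gives UMIs of Txnip per cell thinned to 2000 UMIs, each point is 1 mouse marked by age and sex, and the classes are set side by side; the 8 HSC-like values, from 0.60 to 2.12, all lie above those of the same mouse in the other 6 classes.

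The first step of differentiation already carried much of this range. The level in HSC-like cells was 3.18 to 5.01 times that in the MPP-like cells of the same mouse, with a median of 3.84. Cells with at least 1 Txnip UMI told the same order. After thinning they made up 41.1% to 84.0% of HSC-like cells (median 59.8%) and 3.65% to 8.49% of granulocyte progenitor-like cells (median 5.44%). Without thinning the shares were 83.9% to 98.2% and 22.1% to 34.7%, although granulocyte progenitor-like cells were the deeper ones, with median depths of 10853 to 19468 UMIs against 6947 to 10397. Free RNA in the droplets adds UMIs to cells that do not express a gene, and the granulocyte progenitor-like share is an upper estimate of it at this depth. Macrophage-like cells, 11 to 98 per mouse and too few to test, had a Txnip level of 0.803.

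Thioredoxin itself took the opposite end of the scale in HSC-like cells. Txn1, the cytosolic thioredoxin that Txnip binds, was lowest there at 0.960 UMIs per cell and highest in monocyte progenitor-like cells at 1.48, a 1.54-fold range. The ratio of HSC-like to MPP-like cells was below 1 in 8 of 8 mice for Txn1 (0.775 to 0.939), while it was above 1 in 8 of 8 for Txnip. Steps between neighbouring classes in the Txn1 order were within the spread over mice, except that from monocyte to granulocyte progenitor-like cells.

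Gpx1, the main cytosolic glutathione peroxidase, was also lowest in HSC-like cells, at 1.28 ± 0.20, and highest in monocyte progenitor-like cells, at 3.40 ± 0.18, a 2.65-fold range. Granulocyte progenitor-like cells followed at 3.24 ± 0.48, within the spread of the monocyte progenitor-like cells, and HSC-like and megakaryocyte progenitor-like cells did not differ beyond their spread. Its ratio of HSC-like to MPP-like cells was 0.617 to 0.835, below 1 in 8 of 8 mice. Cat, the catalase of peroxisomes, had the same direction as Txnip at this step, with a ratio of 1.15 to 1.61, and the ratio was also above 1 in 8 of 8 mice for Prdx6, with a median of 1.1, and in 7 of 8 for Gpx4 and Prdx2. Cat was highest in basophil and mast progenitor-like cells at 0.107 and lowest in granulocyte progenitor-like cells at 0.0354.

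The erythroid-like cells were highest for 5 of the 10 genes. Prdx2, the abundant peroxiredoxin of red cells, stood at 1.72 ± 0.57 UMIs per cell there and at 0.562 in granulocyte progenitor-like cells, a 3.06-fold range. Prdx6, which reduces phospholipid hydroperoxides with glutathione, stood at 1.26 against 0.600 in basophil and mast progenitor-like cells. Both were above the next class by more than the spread, in 8 of 8 mice. Gpx4, the glutathione peroxidase that protects membranes from lipid peroxidation, ranged from 1.18 in erythroid-like to 0.771 in MPP-like cells. Sod1, the cytosolic dismutase, ranged from 0.216 to 0.0876 in granulocyte progenitor-like cells, and Sod2, the mitochondrial one, from 0.367 to 0.235 in HSC-like cells. For Gpx4 and Sod1 the lead of the erythroid-like class over the megakaryocyte progenitor-like class was within the spread. Prdx1, a cytosolic peroxiredoxin, differed from this group and was highest in monocyte progenitor-like cells at 1.05 against 0.622 in granulocyte progenitor-like cells.

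**Figure D2:**
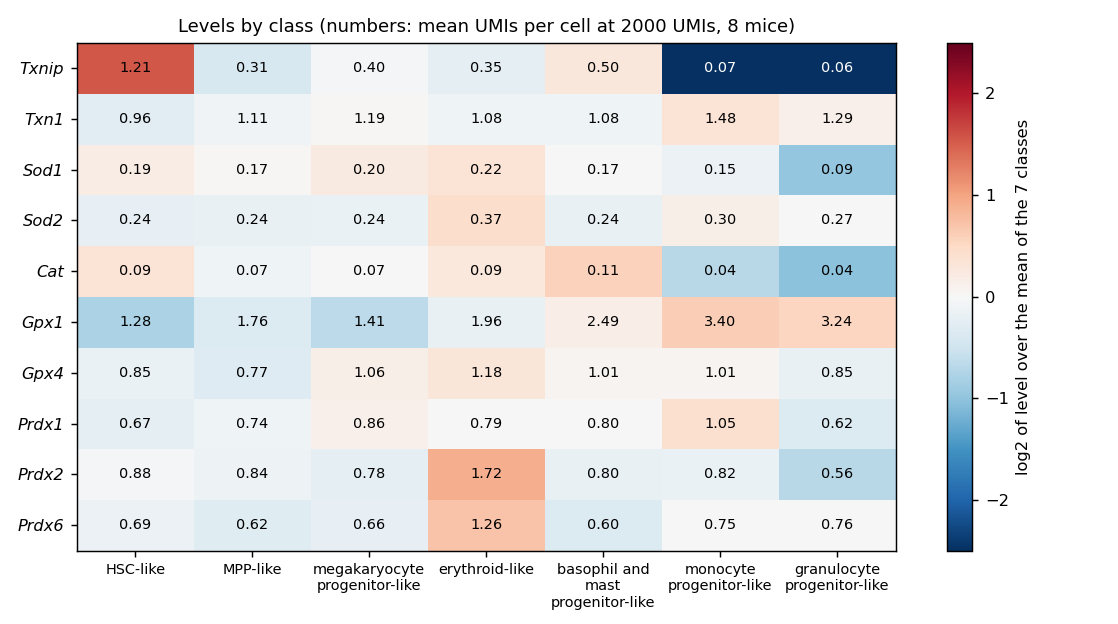
Levels of the 10 genes in the 7 classes. Each row is a gene, each column a class, and the printed number is the mean UMIs per cell thinned to 2000 UMIs over 8 mice and the colour gives that mean over the gene's mean of the 7 classes on a log2 scale; Txnip has the widest range, 20.9-fold, and Txn1 and Gpx4 the narrowest, 1.54-fold.

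Across 4 of the erythroid-like clusters, those numbered 0, 8, 16 and 12, Txnip and Prdx2 went in opposite directions. Cluster 0, with little globin (0.0363 UMIs per cell, summed over the globin genes), had a Txnip level of 0.653 ± 0.11 and a Prdx2 level of 1.10 ± 0.12 (SD, n = 8 mice). Cluster 12, with a globin level of 1.18, had Txnip at 0.0535 ± 0.016 and Prdx2 at 3.27 ± 0.82, with clusters 8 and 16 in between for mean globin, Txnip and Prdx2. Globin varied widely between mice, with SDs of 0.029, 0.062, 0.23 and 1.2 in clusters 0, 8, 16 and 12. Each step in mean globin along these clusters thus lay within the spread. Gpx4 went from 0.993 in cluster 0 to 1.67 in cluster 12, and Prdx6 was 1.24 in cluster 0, 1.59 in cluster 8, 1.53 in cluster 16 and 1.32 in cluster 12. Cluster 13 did not follow this order, with both Txnip (0.148) and Prdx2 (0.965) below cluster 0. Cluster 21 did not follow it either by its mean globin level of 0.158 (SD 0.19), which was above that of cluster 8 (0.0589) by less than the spread. Its Txnip was higher than in cluster 8 (0.26 against 0.118) and its Prdx2 lower (1.56 against 1.83). Cluster 9 had too few cells in most mice. Cluster 0 has a limit, in that 4 erythroid markers were among its leading 50 genes and 0 among its leading 10, and each of the other clusterings left unnamed a cluster of 3746 to 4021 cells led, as cluster 0 is, by Clec4d, Csrp3 and Gm15915. Those clusterings gave erythroid-like Txnip levels of 0.156 to 0.183 in place of 0.348.

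The share of cluster 0 also differed between mice, from 24.8% to 56.9% of the thinned erythroid-like cells, and was 24.8% and 25.2% in the very old mice. Thinning was uneven here, leaving out 4.61% and 4.74% of the erythroid-like cells of the very old male and female and 15.7% to 26.1% of those of the other mice. Prdx2 in the whole erythroid-like class was 1.52 and 2.20 in the young male and female, 1.20 and 1.19 in the middle-aged pair, 1.42 and 1.28 in the old pair and 2.68 and 2.25 in the very old pair. The young female, at 2.20 and with 31.7% of its cells in cluster 0, stood with the very old mice. How far the makeup of the class or the uneven thinning sets these Prdx2 values was not tested.

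The genes whose levels ran most like Txnip were found over the 64 sums of a class and mouse, 8 mice by 8 classes, as the Pearson correlation of log2(CPM + 1) among 5585 genes. The sums of 1 mouse share a library and those of 1 class share its cells, so the values are descriptions. They were Zbtb20 at 0.949, St3gal1 at 0.939, Rgs1 at 0.934, Crebrf at 0.933 and Eif4a2 at 0.931. For Prdx2 they were Alad at 0.907, an enzyme of haem synthesis, and C1qtnf12 at 0.888, and for Prdx6 Txnl1 at 0.914, a thioredoxin-like protein, and Mrpl30 at 0.870. Gpx1 ran most like Ap3s1 at 0.927 and Sec61g at 0.924, Gpx4 like Psmb4 at 0.884 and Bola3 at 0.836, and Cat like Ptp4a2 at 0.901 and Ccdc88a at 0.878. Sod1 ran most like Clic4 at 0.876 and Mbnl1 at 0.871, Sod2 like Fcf1 at 0.931 and Tomm20 at 0.912, Txn1 like Cox5a at 0.83 and Siva1 at 0.817, and Prdx1 like Ifi30 at 0.730 and Fabp5 at 0.724. Among the 10 genes the lowest value was that of Txnip with Gpx1, at -0.87, followed by Txnip with Txn1 at -0.78, and the highest were Sod2 with Prdx6 at 0.83, Sod2 with Gpx4 at 0.74 and Prdx2 with Prdx6 at 0.72.

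Age was compared on raw UMIs summed per mouse and class, as old and very old mice together (n = 4) against young mice (n = 2), with edgeR's quasi-likelihood test and Benjamini-Hochberg adjustment over all genes of a class. In HSC-like cells Txnip rose with age. It stood at 420 CPM (counts scaled by the TMM-adjusted total of the mouse and class) in the young male and 273 in the young female, at 497 and 496 in the middle-aged pair, at 1038 and 561 in the old pair and at 724 and 545 in the very old pair. All 4 older mice lay above both young mice, with the old male highest and the young female lowest. The means were 717 ± 229 (SD, n = 4) and 347 ± 104 (SD, n = 2), and the fitted difference was 1.04 on the log2 scale (SE 0.14), a 2.05-fold rise with an adjusted p of 0.000989. Of the 10 genes, 2 were called in HSC-like cells, Txnip up and Gpx1 down, where 9.22% of all 11773 genes tested were called. Of those calls 704 were higher and 381 lower with age, and with library totals in place of TMM factors 553 and 833, under which Txnip still rose, by 0.95, and Gpx1 fell by 0.38.

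**Figure D3:**
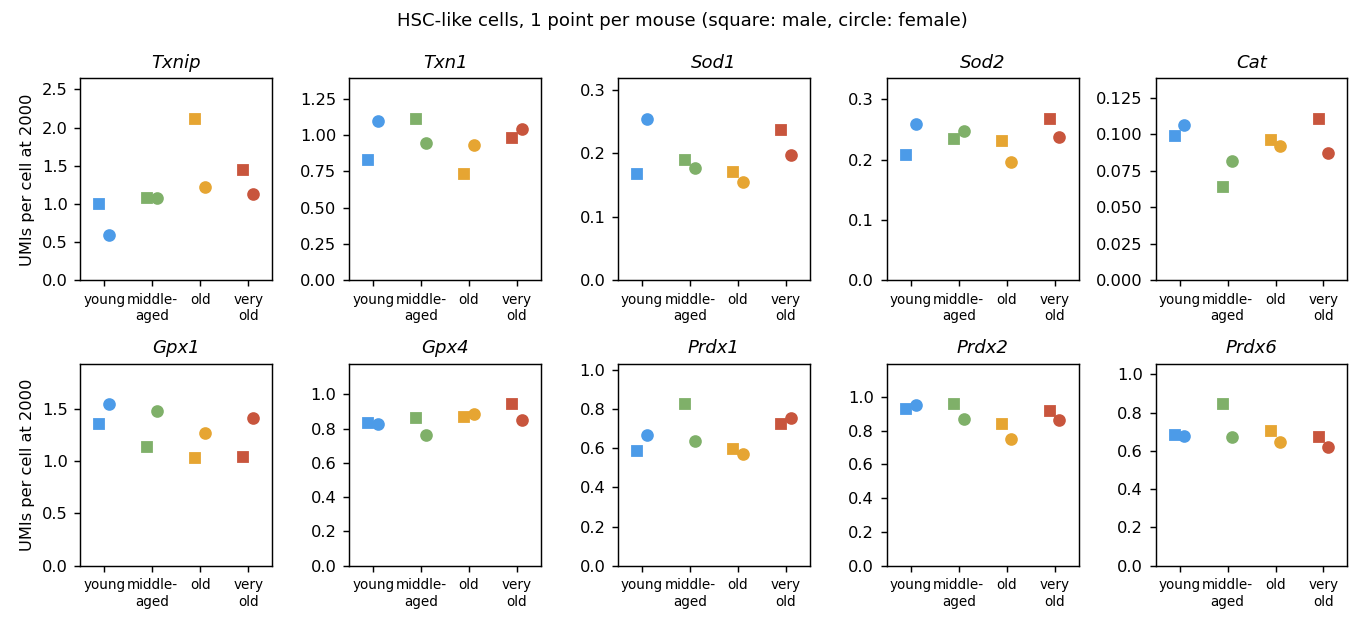
The 10 genes in HSC-like cells by age. Each panel is 1 gene, the axis gives UMIs per cell thinned to 2000 UMIs, and each point is 1 mouse by age group, squares for males and circles for females; the Txnip values of the 4 older mice, 1.13 to 2.12, lie above those of the young mice, 0.60 and 0.995, and the Gpx1 values overlap.

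The rise of Txnip was called without the old male, at 0.89 (adjusted p = 0.00395), and without both very old mice, at 1.21 (adjusted p = 0.00428), by the same edgeR test. Marker levels in the HSC-like class also changed with age. Of 13 HSC markers 11 rose, with a median difference of 1.16, and their summed level was 2.25 to 2.33 UMIs per cell in young and 2.70 to 3.54 in older mice. Of 11 MPP markers 7 fell, with a median of -1.03 and summed levels of 4.83 to 6.39 in young and 2.22 to 3.53 in older mice. The summed level of a list of G2/M-phase genes was 0.549 to 0.61 in young and 0.265 to 0.44 in older mice. Summed markers of megakaryocyte progenitors (0.45 to 0.532 in young and 0.575 to 0.802 in older mice) and of dendritic progenitors (1.34 to 1.76 and 1.89 to 1.97) were higher in older mice without overlap, and those of lymphoid progenitors lower (0.203 to 0.208 and 0.0882 to 0.141), as were those of plasma cells, eosinophil progenitors and macrophages, which were at most 0.19 in any of these mice. No marker of the HSC and MPP lists was left untested for low counts in this class.

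Txnip was also read by the number of HSC-marker UMIs in the cell. In cells with 0 HSC-marker UMIs its level was 0.493 to 0.737 in young and 0.671 to 1.79 in older mice, and in cells with 1 to 2, the largest bin in both young mice, 0.495 to 1.0 in young and 0.937 to 2.03 in older mice. The groups overlap in both bins. In cells with 3 to 5 it was 0.612 to 1.08 in young and 1.24 to 2.16 in older mice, and in cells with 6 or more 1.32 to 1.44 and 1.67 to 2.23, with no overlap in those bins. The bin of 6 or more was small, with 25 and 32 cells in the young male and female and 69 to 162 in the older mice. Within each mouse Txnip was higher in cells with 6 or more than in cells with 0 HSC-marker UMIs (8 of 8 mice), and Gpx1 was lower in 8 of 8. Among HSC-like cells with 3 or more such UMIs the age difference of Txnip was 0.98 (edgeR's quasi-likelihood test, adjusted p = 4.15e-05). The MPP-marker, G2/M and other marker levels were not matched. Whether the mix of cells in the class changed with age, and its part in the rise of Txnip, was not tested.

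Gpx1 fell by 0.29 on the log2 scale in HSC-like cells (SE 0.07, adjusted p = 0.0335, edgeR's quasi-likelihood test). Its CPM were 662 and 764 in the young male and female, 583 and 747 in the middle-aged, 486 and 612 in the old and 546 and 715 in the very old pair. Both sexes were lower at the older ages, but the groups overlap, since the very old female at 715 lay above the young male. The call held in 7 of the 19 alternatives that compare groups, among them library totals in place of TMM factors and cells with 3 or more HSC-marker UMIs. It was lost when any 1 of the young, old or very old mice was left out, and the 19 differences lay between -0.385 and -0.187.

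The other 8 genes were not called in HSC-like cells, with log2 differences from -0.19 for Cat (adjusted p = 0.331, edgeR) to 0.21 for Gpx4 (SE 0.09, adjusted p = 0.182, edgeR). Gpx4 was 0.83 UMIs per cell in both young mice and 0.848 to 0.943 in the older ones, apart but by little. Prdx2 lay apart by little in the other direction, at 0.927 to 0.954 in young and 0.75 to 0.913 in older mice. Among HSC-like cells with 3 or more HSC-marker UMIs the difference of Gpx4 was 0.31 and was called (SE 0.09, adjusted p = 0.0492, edgeR). Prdx1 stood at 0.15, Prdx6 at 0.10, Txn1 at -0.04, Prdx2 at -0.06, Sod1 at -0.10 and Sod2 at -0.00. Thioredoxin, the partner of Txnip, thus had a difference near 0 beside the 2.05-fold rise of Txnip.

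Outside the HSC-like class none of the 10 genes was called for age in any of the 6 other classes. The share of all genes called was 0.744% in MPP-like, 0.0679% in basophil and mast progenitor-like, 0.00784% in erythroid-like, 0.00905% in granulocyte progenitor-like, 2.78% in megakaryocyte progenitor-like and 0.0982% in monocyte progenitor-like cells. Txnip differed by 0.55 in MPP-like cells (SE 0.18, adjusted p = 0.307, edgeR), by 0.39 in basophil and mast progenitor-like cells and by 0.34 in granulocyte progenitor-like cells. The difference was 0.15 in megakaryocyte progenitor-like, 0.13 in monocyte progenitor-like and -0.33 in erythroid-like cells (SE 0.24). Within erythroid-like cluster 0 alone it was -0.29 (SE 0.14) and in the other erythroid-like clusters -0.18 (SE 0.17), neither called. In MPP-like cells the level was 0.268 and 0.189 in the young male and female, 0.237 and 0.270 in the middle-aged, 0.644 and 0.357 in the old and 0.288 and 0.245 in the very old pair. The old mice were highest and the very old overlapped with the young. HSC markers also rose with age outside the HSC-like class, 4 of 13 in MPP-like cells (median 0.773) and 8 of 13 in megakaryocyte progenitor-like cells (median 0.916), and their part in the Txnip values of these classes was not tested. Without the very old mice the MPP-like difference was 0.94 and was called (adjusted p = 0.0312, edgeR), as was that of basophil and mast progenitor-like cells at 0.77 (adjusted p = 0.0171, edgeR). The other 9 genes in these 6 classes gave 54 differences between -0.267 and 0.192, none called, with a smallest adjusted p of 0.119.

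**Figure D4:**
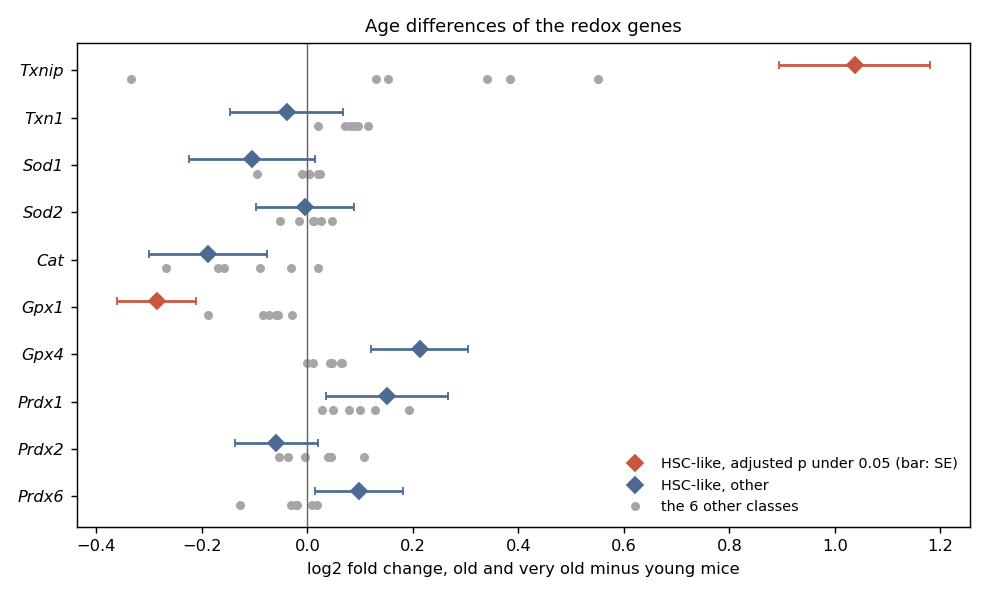
Age differences of the 10 genes in the 7 classes. The axis gives the log2 fold change of old and very old against young mice; diamonds are HSC-like cells with the SE as bars, red where the adjusted p was under 0.05, and grey circles are the 6 other classes. The red diamonds are Txnip at 1.04 and Gpx1 at -0.29.

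Whether the age difference of Txnip was larger in HSC-like cells was tested as a class-by-age term with the mouse as a block. The excess in HSC-like cells was 0.89 over megakaryocyte progenitor-like cells (SE 0.12, adjusted p = 0.000382), 0.94 over monocyte progenitor-like cells (adjusted p = 0.0123), 1.31 over erythroid-like cells (SE 0.27, adjusted p = 0.0334) and 0.49 over MPP-like cells (SE 0.11, adjusted p = 0.0257), all by edgeR's quasi-likelihood test. Over basophil and mast progenitor-like cells it was 0.73 (adjusted p = 0.082, edgeR) and over granulocyte progenitor-like cells 0.71 (adjusted p = 0.155, edgeR), neither called. Of all genes, 2.34%, 1.89%, 0.766%, 2.4%, 1.3% and 0.684% were called in these 6 comparisons, in the same order. No other of the 10 genes was called in any of these fits, but others were with doublets removed and without a filter on low counts. Without the very old mice the excess over megakaryocyte progenitor-like cells was called, at 0.81, and the other 5 were not. The call over MPP-like cells was also lost without either young mouse or without the old male, that over erythroid-like cells without either young mouse or without the very old male, and that over monocyte progenitor-like cells without the young female.

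The wider redox pathways were read in the same HSC-like age comparison from 4 gene lists, whose counts of calls stand beside the 9.22% of all genes called. Of 13 thioredoxin-system genes tested, 2 rose and 0 fell. Srxn1, which repairs overoxidised peroxiredoxins, rose by 1.07 (SE 0.28, adjusted p = 0.0334, edgeR), from 3.88 to 7.88 CPM in young to 10.1 to 13.9 CPM in older mice. Selenow, a small selenoprotein, rose by 0.37 (adjusted p = 0.0255, edgeR). The median over the list was 0.137, against -0.036 over all genes.

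Of 23 glutathione-system genes tested, 4 rose and 1 fell (9.22% of all genes were called), with a median of 0.106. Gstm1, a glutathione transferase, rose by 0.76 (SE 0.11, adjusted p = 0.00141, edgeR), from 89.8 to 122 CPM in young to 136 to 234 CPM in older mice. Gpx3, a secreted glutathione peroxidase, was at 0.259 to 0.738 CPM in young and 2.82 to 7.73 CPM in older mice (adjusted p = 0.0132, edgeR), and Gpx8, a peroxidase of the endoplasmic reticulum, was at 0 CPM in both young mice and at 2.01 to 5.83 CPM in the older ones. Mgst1, a microsomal transferase, fell by 0.60 (adjusted p = 0.0255, edgeR). Gpx3 and Gpx8 are low-count genes, and the other rise was that of Gstm5.

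Of 23 genes of NRF2 targets and iron storage, 2 rose and 4 fell, with a median of 0.0179. Hmox1, the haem-degrading enzyme, fell by 1.86 (SE 0.33, adjusted p = 0.00505, edgeR), from 17.8 to 34.2 CPM in young to 4.47 to 15.5 CPM in older mice. Hmox1 was also among the 10 leading genes of the macrophage-like cluster. The summed macrophage markers in HSC-like cells were at 0.0633 to 0.0693 UMIs per cell in young and 0.0111 to 0.0466 in older mice, and macrophage-like cells numbered 71 and 98 in the young and 11 to 29 in the older mice, and their part in the fall of Hmox1 was not tested. Tkt and Taldo1, both of the non-oxidative pentose phosphate pathway, and Ucp2, a mitochondrial carrier, also fell, Tkt by 0.46 (adjusted p = 0.0133, edgeR) and Ucp2 by 0.45 (adjusted p = 0.0431, edgeR). Maff, a small Maf protein, rose by 1.19 and Sesn3, a sestrin, by 0.50 (both with an adjusted p of 0.038, edgeR). Of 13 Txnip relatives and regulators tested, 2 rose and 0 fell, with a median of 0.119. Arrdc4, another alpha-arrestin that MondoA regulates, rose by 0.95 (SE 0.20, adjusted p = 0.0128, edgeR), from 10.9 to 12.1 CPM to 15.4 to 27.8 CPM. Cited2, a transcriptional co-regulator needed for stem cell maintenance, rose by 0.87 (adjusted p = 0.000572, edgeR), from 111 to 122 CPM to 179 to 263 CPM. In the other 6 classes the calls from these 4 lists were a fall of Hmox1 in MPP-like, basophil and mast progenitor-like and megakaryocyte progenitor-like cells, beside the same lower number of macrophage-like cells in older mice, and a rise of Gpx8 in megakaryocyte progenitor-like cells.

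The middle-aged mice were set against the young mice in HSC-like cells, all 4 within 1 library series. None of the 10 genes was called, where 1.52% of all genes were, by edgeR's quasi-likelihood test. An unadjusted p under 0.05 was reached by 4 of the 10, and by 1764 of all 11773 genes. Txnip differed by 0.57 (SE 0.16, adjusted p = 0.112, edgeR), 496 and 497 CPM against 273 and 420 CPM, and Cat differed by -0.43.

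Female and male mice, 4 of each over the 4 ages, differed in 1 of the 10 genes in 1 class. Gpx1 was higher in female HSC-like cells by 0.32 (SE 0.06, adjusted p = 0.0467, edgeR), at 709 ± 68 CPM against 569 ± 73.9 CPM (SD, n = 4 each), and higher at each of the 4 ages. This call was lost when any 1 of the young, old or very old mice was left out (adjusted p from 0.0587 to 0.273, edgeR), without Harmony and with thinned cells, at differences of 0.25 to 0.34. Txnip was lower in females by 0.48 in HSC-like cells (SE 0.11, adjusted p = 0.0951, edgeR) and not called. It was lower in the young, old and very old female than in the male of that age, while the middle-aged pair was level, at 496.2 CPM (female) and 496.5 CPM (male). Of all genes, 0.637% were called in HSC-like cells, and 0.412% in MPP-like, 0.311% in basophil and mast progenitor-like, 0.102% in erythroid-like, 0.19% in granulocyte progenitor-like, 0.357% in megakaryocyte progenitor-like and 0.614% in monocyte progenitor-like cells. The age difference itself was compared between the sexes in HSC-like cells, where 0% of all genes were called by edgeR's quasi-likelihood test, 0 of the 10 among them, and 563 genes had an unadjusted p under 0.05. For Txnip the female minus male age difference was -0.35 (SE 0.21, adjusted p = 0.973, edgeR).

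Variability between HSC-like cells was compared as the variance of each gene over the trend of variance with mean, in cells thinned to 4500 UMIs. None of the 10 genes was called between older and young mice by limma, where 0.414% of all 5069 genes were. Txnip differed by 0.10 on the log2 scale (adjusted p = 0.766, limma). Gpx1 differed by 0.15 (adjusted p = 0.479, limma) and Prdx6 by -0.14 (adjusted p = 0.345, limma). That pair had an unadjusted p under 0.05, as did 409 of all 5069 genes.

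The G2/M list was read within the HSC-like and MPP-like classes only. Unnamed cells were left out, among them a cluster of 2265 cells with Nusap1, Ube2c and Cenpf of that list among its leading 10 genes. Cells with 3 or more UMIs of the G2/M list were compared with cells without any in the same mouse. This sets the 10 genes beside the transcripts of dividing cells in these classes. In MPP-like cells, with 151 to 337 such cells per mouse, 6 of the 10 genes were lower and 0 higher, where 27.8% of all genes were called, 50.5% of them higher (65.9% with library totals in place of TMM factors). Txnip was lower by -0.52 (SE 0.09, adjusted p = 1.31e-06, edgeR), at 0.159 to 0.373 UMIs per cell with and 0.177 to 0.738 without G2/M UMIs, in 6 of 8 mice. Prdx2 differed by -0.45 (adjusted p = 8.66e-11, edgeR), Gpx1 by -0.33 (adjusted p = 1.92e-09, edgeR), Gpx4 by -0.32 (adjusted p = 7.45e-06, edgeR) and Prdx6 by -0.27 (adjusted p = 0.000517, edgeR), each lower in 8 of 8 mice. Sod2 differed by -0.30 (adjusted p = 0.0106, edgeR), lower in 6 of 8 mice. Some calls depend on the scaling and on the test. With library totals the difference of Txnip was -0.44 (adjusted p = 8.05e-05, edgeR), 5 of the 6 calls held and that of Sod2 was lost. DESeq2 gave Txnip the same difference of -0.52 with a larger SE of 0.20 (adjusted p = 0.0523), not called. Sod2 was not called by DESeq2 either, at -0.31 (adjusted p = 0.0976), while Prdx2, Gpx1, Gpx4 and Prdx6 were. Of the other lists in MPP-like cells, 1 of 11 thioredoxin-system genes was higher and 6 lower, 0 of 17 glutathione-system genes were higher and 9 lower, and 0 of 19 NRF2 targets were higher and 6 lower. Of 7 Txnip relatives and regulators 1 was higher and 2 lower, with a median of 0.0617. Of 8 HSC markers tested in these cells 0 were higher and 5 lower, with a median of -0.587 against -0.00341 over all genes, and their part in the difference of Txnip was not tested.

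**Figure D5:**
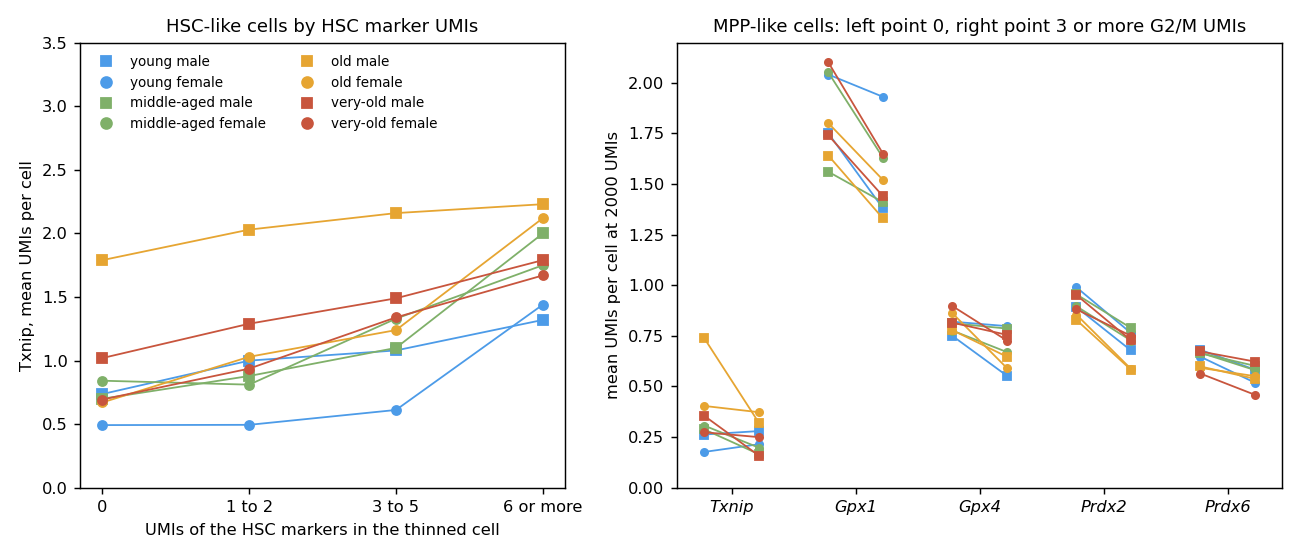
Txnip by HSC-marker UMIs, and 5 of the genes by G2/M UMIs. The left panel plots Txnip UMIs per thinned HSC-like cell against the number of HSC-marker UMIs in the cell, 1 line per mouse, and the right panel plots Txnip, Gpx1, Gpx4, Prdx2 and Prdx6 in MPP-like cells with 0 (left point) and with 3 or more G2/M UMIs (right point), 1 line per mouse. Txnip is higher at 6 or more than at 0 HSC-marker UMIs in 8 of 8 mice.

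In HSC-like cells this comparison rested on 5 mice, both young, both middle-aged and the very old female. Each had 10 to 17 cells holding 3 or more G2/M UMIs. There 4 of the 10 genes were called, where 4.98% of all genes were, 12.5% of them higher (75.7% with library totals), with Txnip at -1.03 (SE 0.21, adjusted p = 5.88e-05, edgeR), Prdx1 at -0.79, Prdx6 at -0.74 and Prdx2 at -0.65. These calls depend on the scaling and on the test. DESeq2 called none of the 4, with Txnip at -0.65 (adjusted p = 0.5). With TMM factors the median of all genes was -0.34, and with library totals it was 0.17, none of the 4 was called and Txnip stood at -0.50 (adjusted p = 0.374, edgeR). Txnip was lower in 4 of 5 mice and higher in the very old female, at 1.36 UMIs per cell with and 1.13 without G2/M UMIs. Prdx1, Prdx6 and Prdx2 were each lower in 3 of 5. Txn1 was higher in 5 of 5, and with library totals Txn1 was called higher, at 0.63 (adjusted p = 0.0169, edgeR).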

How the data were processed

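Lin- c-Kit+ bone marrow cells of 8 mice were profiled, 1 library each. The deposited matrices hold raw UMI counts per gene and cell, made by the authors with Cell Ranger 6.0.0 on mm10 per the file headers and the submitters' processing notes, with no normalisation; the totals above set the precision. The 10 genes and all lists were chosen with earlier results of these data known. Coordinates and names were taken from GENCODE and RefSeq tables of GRCm38. Prdx6b, a near copy of Prdx6, had 2 UMIs.

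Cells with under 200 genes were left out. With scanpy 1.11.5 and leidenalg 0.10.2, 2000 variable genes without the members, 30 components and Harmony over libraries gave 26 clusters at resolution 0.8. A named cluster had at least 3 markers of its class among its leading 50 genes. The leading 10 genes were checked as well. Clusters of 1180, 602 and 230 cells that had 3 or more such markers stayed unnamed. Doublets were kept, and the 3545 cells with the highest scrublet scores were removed in an alternative. Raw counts were summed per mouse and class with at least 20 cells in every mouse, filtered with filterByExpr, scaled with TMM and tested with edgeR 4.0.16 (R 4.3.3), age group and sex as terms, over all genes. Genes were called at an adjusted p under 0.05, and for variance (limma 3.58.1) also a log2 difference beyond 0.1. DESeq2 1.42.0 was an alternative. The age, class-by-age, G2/M and variance fits were run on simulated data with known changes. The named genes are the 10, up to 3 largest called rises and falls of each list in HSC-like cells, and the genes most like each of the 10. Labels do not say that mice share a litter or a preparation day. p-values measure the spread between single mice.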

Additional observations from a re-analysis of the deposited data

Results flagged for a closer look

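In 70 groups of the 4 older mice, 1 group per gene and class, the gap of the highest or lowest mouse was compared with the group's range, and by Dixon's criterion 2 stood out, where chance alone gives about 5%. Prdx1 in basophil and mast progenitor-like cells was 0.949 UMIs per cell in the very old male, the other 3 older mice being at 0.724 to 0.732. Prdx6 in MPP-like cells was 0.67 in the same mouse, with the others at 0.574 to 0.589.

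The age difference of Txnip differed between HSC-like cells and 4 other classes in the test of the difference itself. It was larger in HSC-like cells by 0.495 than in MPP-like, by 1.31 than in erythroid-like, by 0.891 than in megakaryocyte progenitor-like and by 0.935 than in monocyte progenitor-like cells (log2). The share of cluster 0 among the thinned erythroid-like cells was lowest in the very old mice. Within that cluster the age difference of Txnip was -0.29 (SE 0.14) and in the other erythroid-like clusters -0.18 (SE 0.17), against -0.33 over the class.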

How the results depend on the processing

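Of 457 log2 differences under an alternative, 366 kept their direction and side of the threshold, 61 lost the call, 24 gained one and 6 changed sign; of 420 levels 352 moved by less than the spread over mice. The alternatives for library totals, for HSC-like cells with 3 or more HSC-marker UMIs, for erythroid-like cluster 0 and without the old male were added after the data were seen. Txnip in HSC-like cells was called in 19 of 19 alternatives, from 0.863 to 1.21. The number of gene and class pairs called for old and very old against young was 2, and 1 with DESeq2, without Harmony, without the sex term and with a slope on age in weeks, and 1 to 2 without 1 mouse. More were called in other alternatives. Gpx4 was added among HSC-like cells with 3 or more HSC-marker UMIs, and Txnip in MPP-like and basophil and mast progenitor-like cells without the very old mice. Txnip was called in 3 of 19 settings in MPP-like cells and in 2 of 19 in basophil and mast progenitor-like cells. For middle-aged against young it was 0, and 2 without a filter on low counts or with doublets removed, and 0 to 1 without 1 mouse. For sex it was 1, and 2 with DESeq2, 3 without a filter, 0 without Harmony, 2 with doublets removed, and 0 to 2 without 1 mouse. For the G2/M comparison it was 10, and 4 with DESeq2, 6 with library totals, and 6 to 10 without 1 mouse. For the age difference between classes it was 4, and 7 without a filter, 11 with doublets removed, 1 without the very old mice, and 1 to 6 without 1 mouse. The 4 were all of Txnip, while 7 and 11 exceed the 6 comparisons and so hold other genes of the 10. For variance and for age by sex it was 0 in every alternative run. The shares of all genes called stand above for the main fits and not for these alternatives.

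The 6 of the 457 differences that changed sign were those of Txnip in classes where it was not called. The 457 are a part of all differences fitted. Others near 0 also changed sign. Prdx2 for age in erythroid-like cells went from -0.04 to 0.11 in cluster 0 alone. Prdx6 for age in MPP-like cells went from 0.02 to -0.02 with library totals. Without the very old mice the age difference of Txnip was 0.25 in erythroid-like cells. Without 1 mouse it was -0.885 to 0.319 in erythroid-like, -0.0165 to 0.746 in granulocyte progenitor-like, -0.0358 to 0.340 in megakaryocyte progenitor-like and -0.0460 to 0.313 in monocyte progenitor-like cells. With library totals in place of TMM the calls of all genes for age in HSC-like cells moved from 704 higher and 381 lower (64.9% higher) to 553 and 833 (39.9%), with a median of -0.13 in place of -0.036; Txnip stood at 0.95 and Gpx1 at -0.38, both called. In the G2/M comparison the share of higher calls moved from 50.5% to 65.9% in MPP-like and from 12.5% to 75.7% in HSC-like cells. A cut of 5 or more G2/M UMIs left too few HSC-like cells for a value. No paired analysis was possible because the labels pair no mice of different ages beyond their sex, which was a term of the age fits; comparisons within a mouse had the mouse as a block.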
